A study of Mus musculus with 141 samples.

Results

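The HoxB, HoxC and HoxD gene clusters were read for CpG methylation in single mouse glioma cells. Every position of the methylation table was taken that lies on chromosome 11 from 96190000 to 96370000 (HoxB), chromosome 15 from 102915000 to 103040000 (HoxC) or chromosome 2 from 74665000 to 74770000 (HoxD) in the mouse build mm10. This gave 2710 of the 1416034 positions in the table, with 921 in HoxB, 755 in HoxC and 1034 in HoxD. After both strands of a CpG were joined they formed 2534 CpGs, of which 618 had a call in at least 5 cells of each arm and could be compared (195 in HoxB, 231 in HoxC and 192 in HoxD).

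The cells are glioma cells with the IDH R132H mutation. They had grown in culture for more than 2 weeks with AG-881 at 1 µM (vorasidenib, an inhibitor of mutant IDH) or with DMSO, its solvent, and the question is whether methylation differs between these arms. Live cells were sorted 1 by 1 and read by reduced representation bisulfite sequencing, which cuts DNA with MspI at CCGG and so favours CpG-dense sequence. There were 67 AG-881 cells in library pools 1 to 4 and 74 DMSO cells in library pools 5 to 8. The labels name no separate cultures, so each arm is 1 sample, and values are given without a test. Intervals are exact (Clopper-Pearson) at 95% and count calls. They cover counting error only and, since the calls of a cell are not independent, are too narrow for differences between cells. A level of 0 is given with the level that 3 methylated calls of its total would make, in place of an interval. A pool holds cells of 1 arm, and what belongs to a pool and what to its arm cannot be told apart. A cell had a median of 21 calls in HoxB with AG-881 and 14 with DMSO, 30 and 24 in HoxC, and 18 and 14 in HoxD, so levels were read mainly from calls pooled over cells. Across the 396065 CpGs of the table compared in the same way, 25.4% of calls were methylated with AG-881 and 26.8% with DMSO, with pool 3 (28.4%) above the other AG-881 pools (23.6 to 25%) and pool 5 (27.6%) above the other DMSO pools (25.8 to 26.8%). Markers of the labelled cell type and the R132H mutation itself cannot be read from methylation calls at these loci and were not checked.

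Hox genes encode homeodomain transcription factors that tell cells their place along the body axis. They sit in 4 clusters, all genes of a cluster point the same way, and their order along the chromosome follows the order in which the axis expresses them, with the Hox13 genes at the tail end. In cells of the forebrain Hox clusters are usually silent under Polycomb, the complex that keeps developmental genes off, and in many tumours their CpG-rich sequence gains DNA methylation. The mutant IDH enzyme makes a metabolite that blocks the TET enzymes, which remove methyl groups from CpGs.

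The contrast inside HoxD can be read from its promoter sequences, printed here because these promoters of 1 cluster range from no methylated call to nearly all calls methylated. Each is the 300 bp window of RefSeq from 250 bases before to 50 bases after a gene start on the plus strand of GRCm38.p6, and capitals mark the CpGs that could be compared in both arms. RefSeq's table gave 14 such windows for 13 of the 28 Hox genes of the clusters, and 8 of the windows held a compared CpG. At the Hoxd11 window, chr2:74682073-74682372, 20 of 28 calls were methylated with AG-881 and 23 of 29 with DMSO. At Hoxd9, chr2:74697513-74697812, the counts were 24 of 35 and 24 of 48. At Hoxd3, chr2:74711743-74712042, 0 of 71 and 0 of 45 calls were methylated, which allows levels of up to 4.23% and 6.67%. At Hoxd4, chr2:74721728-74722027, 10 of 11 and 12 of 12 calls were methylated.
Hoxd11: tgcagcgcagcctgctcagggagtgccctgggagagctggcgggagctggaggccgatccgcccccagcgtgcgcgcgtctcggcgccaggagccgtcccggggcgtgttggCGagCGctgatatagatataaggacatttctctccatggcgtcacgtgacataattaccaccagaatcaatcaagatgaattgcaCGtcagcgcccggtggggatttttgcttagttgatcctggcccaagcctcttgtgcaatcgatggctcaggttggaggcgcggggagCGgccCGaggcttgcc
Hoxd9: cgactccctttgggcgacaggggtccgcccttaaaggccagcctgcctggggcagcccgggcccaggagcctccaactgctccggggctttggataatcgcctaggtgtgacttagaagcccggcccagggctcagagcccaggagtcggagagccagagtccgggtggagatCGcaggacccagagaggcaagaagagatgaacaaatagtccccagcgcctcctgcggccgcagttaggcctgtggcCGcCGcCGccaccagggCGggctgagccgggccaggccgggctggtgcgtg
Hoxd3: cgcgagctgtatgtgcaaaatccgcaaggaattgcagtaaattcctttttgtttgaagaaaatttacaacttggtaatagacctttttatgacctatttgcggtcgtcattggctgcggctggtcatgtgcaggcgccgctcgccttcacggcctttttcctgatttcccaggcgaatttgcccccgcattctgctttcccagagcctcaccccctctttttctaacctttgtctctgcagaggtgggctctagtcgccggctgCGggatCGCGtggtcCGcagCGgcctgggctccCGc
Hoxd4: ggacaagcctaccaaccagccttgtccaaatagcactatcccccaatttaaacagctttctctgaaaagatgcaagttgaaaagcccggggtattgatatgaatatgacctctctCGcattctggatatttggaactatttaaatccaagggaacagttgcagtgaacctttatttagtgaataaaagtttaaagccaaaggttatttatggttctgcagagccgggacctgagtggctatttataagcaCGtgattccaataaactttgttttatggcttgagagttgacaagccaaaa
The Hoxd9 and Hoxd3 windows have the same number of CG pairs, 20 each, more than 73.5% of the 32851 promoter windows of the table. Hoxd11 has 25 and Hoxd4 has 4. The MspI site CCGG, the same on both strands, occurs 2 times at Hoxd11, 6 times at Hoxd9, 1 time at Hoxd3 and 2 times at Hoxd4; 52.8% of all promoter windows hold it. At these promoters, then, the methylated and the unmethylated ones do not divide by CG number.

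All 3 clusters carried more methylation than the compared CpGs of the whole table, and HoxD carried the most. HoxD had 59.6% methylated calls with AG-881 (1500 calls, interval 57.1 to 62.1) and 60.1% with DMSO (1387 calls, interval 57.5 to 62.7). HoxC had 43.3% (2165 calls, interval 41.2 to 45.4) and 42.1% (1890 calls, interval 39.8 to 44.3). HoxB had 39.5% (1482 calls, interval 37 to 42.1) and 44.8% (1233 calls, interval 42 to 47.6). The fourth cluster, HoxA, had 18.6% and 17.9%, below each of the 3 in both arms. The order also held inside single cells. Among cells with at least 20 calls in both clusters, HoxD lay above HoxB in 18 of 22 AG-881 cells and 11 of 14 DMSO cells, and above HoxC in 20 of 26 and 17 of 21. HoxB and HoxC had no common order: HoxB was the higher one in 15 of 30 AG-881 cells and 12 of 17 DMSO cells. HoxB lay above HoxA in 32 of 33 and 18 of 20 cells, and HoxC above HoxA in 43 of 44 and 40 of 44. Cells with 20 calls in HoxB ranged from 16.3% to 67.4% with AG-881 (median 41.3%, 36 cells) and from 24.2% to 65% with DMSO (median 47.1%, 21 cells). In HoxC they ranged from 29.8% to 66.7% (median 41.8%, 46 cells) and from 17.1% to 69.6% (median 42.5%, 46 cells).

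**Figure D1:**
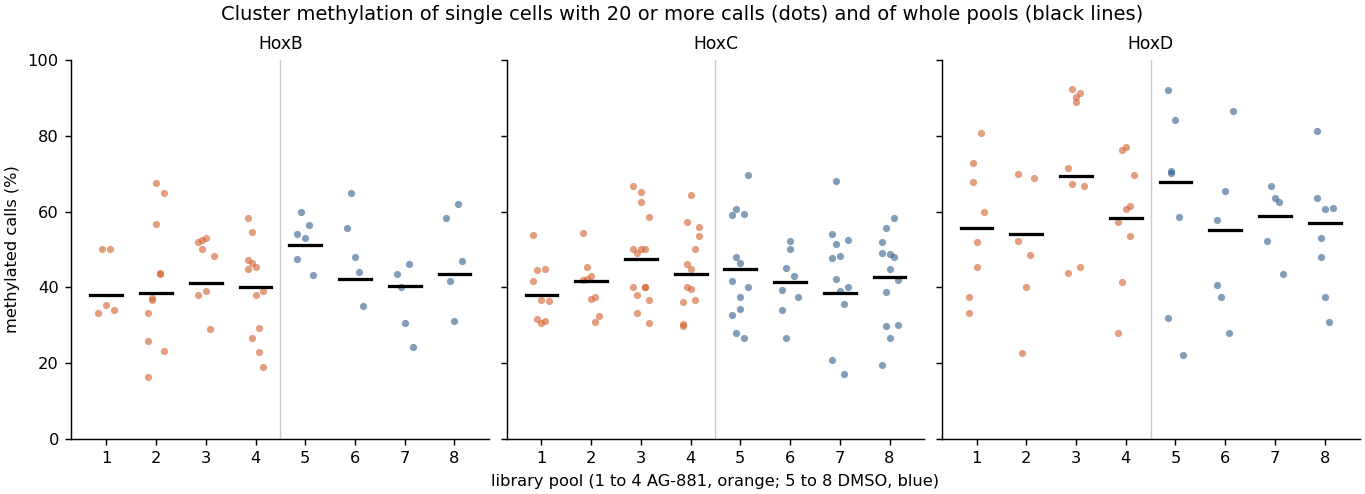
Methylated calls (%) in each cluster against the library pool, for single cells with at least 20 calls (dots; AG-881 orange, DMSO blue) and for all calls of a pool (black lines). Pools of both arms overlap in every cluster, pool 5 is the highest in HoxB, and pools 3 and 5 are the highest in HoxD.

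In HoxC and HoxD the arms differed by less than the pools of either arm did among themselves. In HoxC the difference, AG-881 minus DMSO, was 1.26 percentage points (interval -1.83 to 4.34), and its sign turned without AG-881 pool 3 (-0.502 points). AG-881 pools 1 to 4 had 38%, 41.6%, 47.4% and 43.5% in HoxC, and DMSO pools 5 to 8 had 44.8%, 41.4%, 38.6% and 42.7%. In HoxD the difference was -0.530 points (interval -4.15 to 3.10), and it became -3.91 points when AG-881 pool 3 was left out and 2.41 points when DMSO pool 5 was. HoxD levels were 55.6%, 54.2%, 69.5% and 58.3% in the AG-881 pools and 67.8%, 55.1%, 58.9% and 57.1% in the DMSO pools. In HoxB the difference was -5.23 points, with an interval of -9.00 to -1.45 that does not include 0. HoxB levels were 38%, 38.6%, 41% and 40.1% in AG-881 pools 1 to 4 and 51%, 42.1%, 40.4% and 43.5% in DMSO pools 5 to 8, so all AG-881 pools lay below 3 of the 4 DMSO pools and pool 3 lay above DMSO pool 7. DMSO pool 5 carries much of this difference: without it HoxB differed by -2.37 points (interval -6.60 to 1.83). When the arms were set against each other within each CpG, so that both weigh the same CpGs, the difference was -4.05 points in HoxB, -0.631 in HoxC and -1.02 in HoxD.

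CpG-dense sequence is the part of these clusters that stands furthest from the rest of the table. Density was counted as the positions of the table within 100 bp either side of a CpG. Over all compared CpGs the DMSO level went down with density, from 63.2% at 1 to 4 positions through 42.8% at 5 to 9 and 13.2% at 10 to 19 to 6.14% at 20 or more. In HoxB the sparsest class was the lowest in both arms: the DMSO levels were 32.3%, 40.9%, 56.1% and 48.4% in the same order of density, and the AG-881 levels 26.7%, 37.3%, 49.5% and 43.6%. The sparsest class of HoxB was thus below the level of such CpGs in the whole table and the dense classes well above theirs. That class holds 40 CpGs over 19 tiles of 1 kb, and without any 1 tile its DMSO level stayed between 30.3% and 34.5%, and its AG-881 level between 24.1% and 30.2%. The densest class of HoxB holds 28 CpGs over 7 tiles, and without any 1 tile it ranged from 39.9% to 58.2% with DMSO and from 40.8% to 51.4% with AG-881. HoxC stayed near 50% in the sparse classes (49.1% and 49.8% with DMSO, 51.9% and 50.6% with AG-881) and had 34% and 36% at 10 to 19 positions. Its densest class rests on 10 CpGs in 3 tiles and had 19.1% with AG-881 (94 calls) and 39.8% with DMSO (93 calls), ranging from 11.1% to 28.6% and from 29.9% to 46.8% when 1 tile was left out. HoxD had DMSO levels of 88.4%, 81.7%, 72.2% and 31.1% and AG-881 levels of 90.4%, 79.7%, 72.9% and 29.5%. Its lower dense classes hold all CpGs of a mostly unmethylated stretch from Hoxd8 to Hoxd3, described further on. Outside that stretch there was no common fall with density. HoxA lay at 12.8% in both arms in the densest class.

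**Figure D2:**
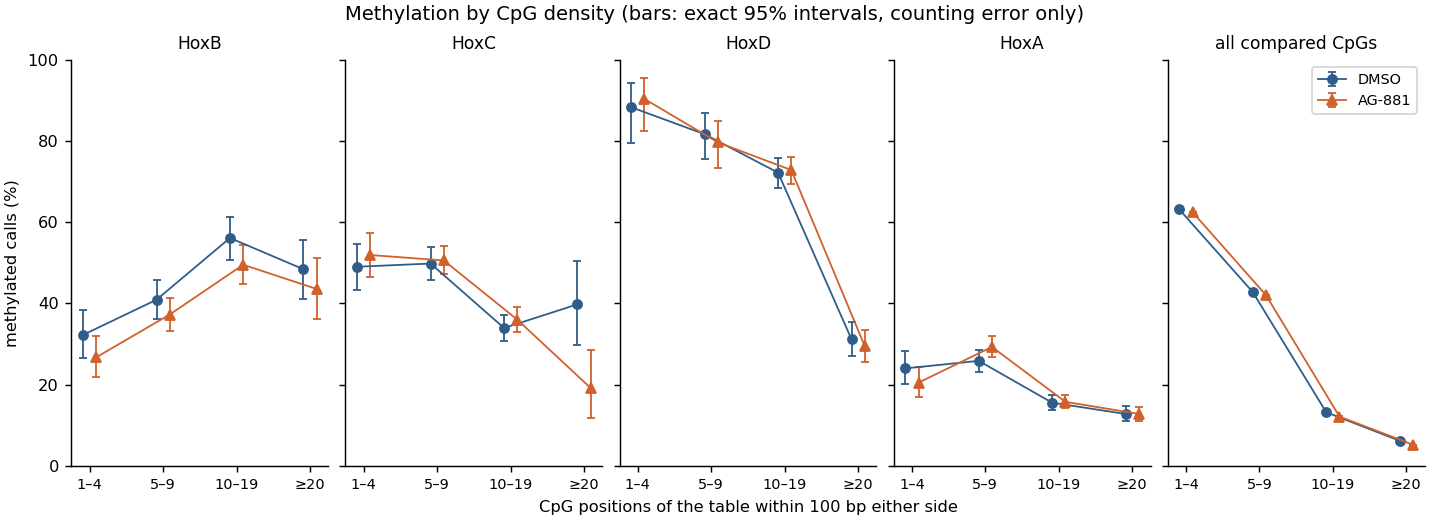
Methylated calls (%) against the number of CpG positions within 100 bp either side, for each Hox cluster and for all 396065 compared CpGs; points are arms (circles DMSO, triangles AG-881) and bars exact 95% intervals. The DMSO level of HoxB was 32.3% in the sparsest class and 48.4% in the densest, whereas that of all CpGs went from 63.2% to 6.14%.

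The same contrast appeared in windows of 1 kb. Of the 31 tiles of the 3 clusters with at least 50 calls and 10 cells in each arm, 26 had a DMSO level of 20% or more, against 28.3% of such tiles over the whole table. Among tiles with a mean density of 10 or more, 17 of 19 did so, against 17.8% of the table, and all 3 of HoxB, all 6 of HoxC and 8 of 10 of HoxD were among them. Of the sparser tiles 9 of 12 did so, against 56.3% of the table. A DMSO level of 80% or more was reached by 6 of the 10 dense HoxD tiles and by none of the 9 dense tiles of HoxB and HoxC, against 2.89% of dense tiles over the table. In HoxA 3 of 11 dense tiles reached 20%. Single CpGs gave the same picture of HoxD: with DMSO 50 of its 192 CpGs were below 20%, 46 between 20 and 80% and 96 at 80% or more. In HoxB the DMSO counts were 49, 102 and 44 of 195, and in HoxC 52, 138 and 41 of 231, so intermediate CpGs made up 52.3% and 59.7% there and 24% in HoxD, against 17% of all compared CpGs.

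**Figure D3:**
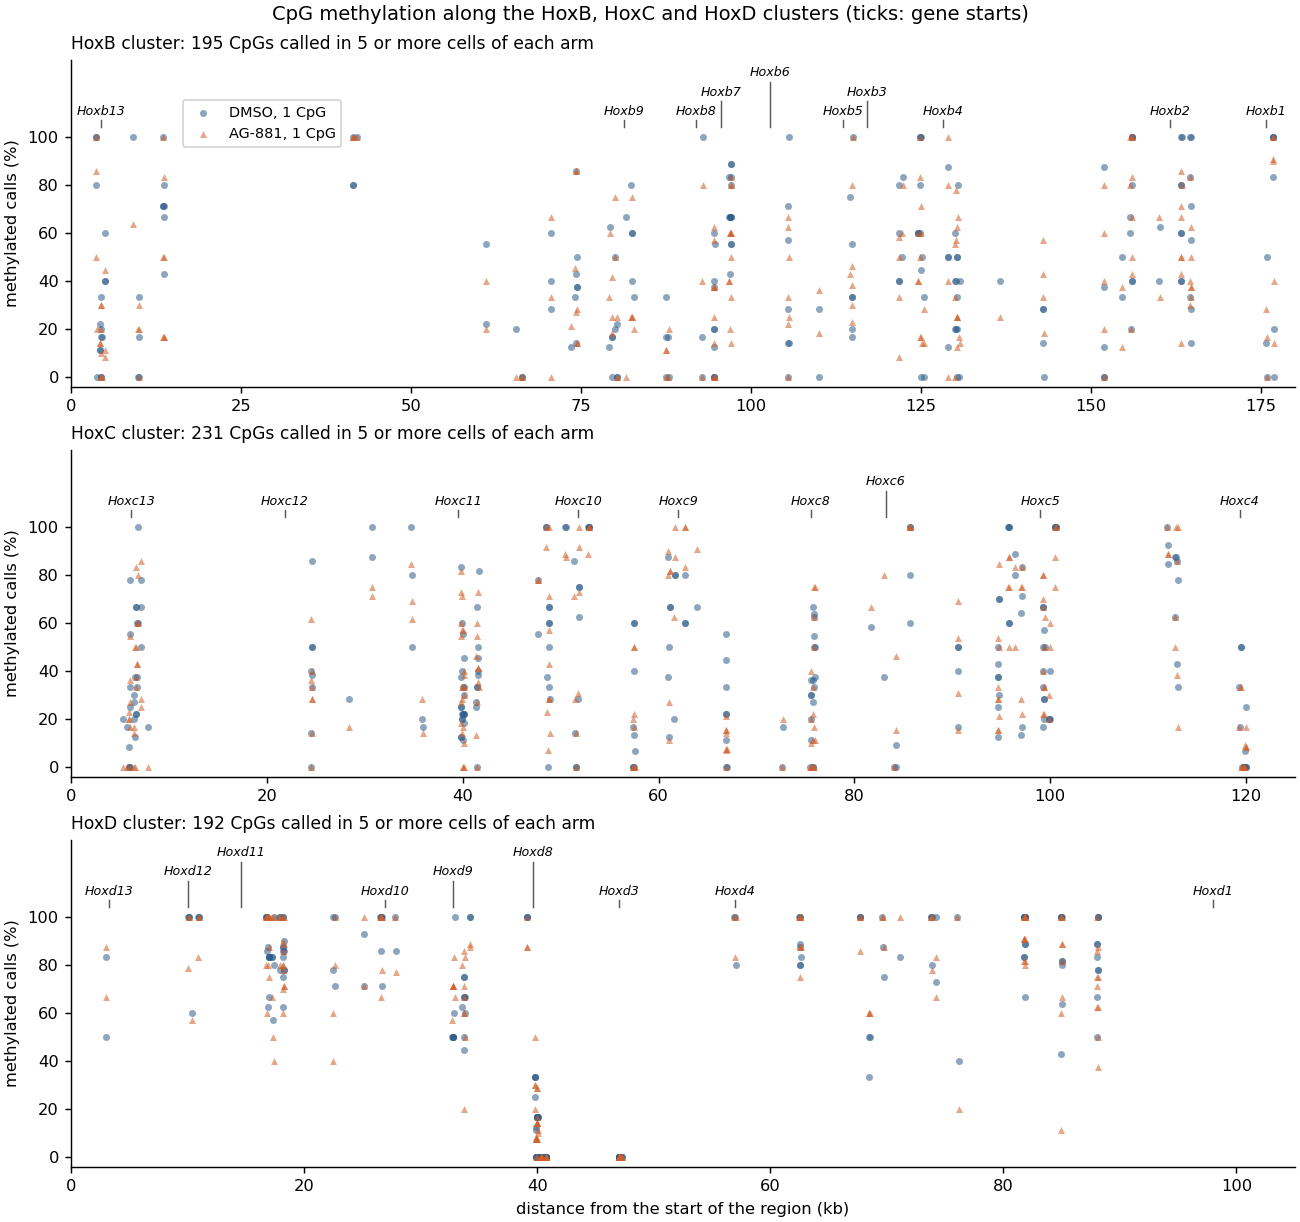
Methylated calls (%) of each compared CpG against the distance from the start of its region in kb, with DMSO as blue circles, AG-881 as orange triangles and gene starts as labelled ticks. HoxD is high except from Hoxd8 to Hoxd3, where all CpGs of the Hoxd3 start are at 0, while HoxB and HoxC hold low, intermediate and high CpGs side by side in many places, though at the Hoxc4 start all are at 50% or less.

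HoxD was methylated on both sides of 1 low stretch. The stretch from the start of Hoxd8 to that of Hoxd3 was read with 1 kb either side. It was picked out after its values were seen, so its contrast with the rest is a description. No compared CpG lies between 40.774 and 47.007 kb from the region start. Whether the stretch is 1 gap or separate low blocks at Hoxd8 and Hoxd3 therefore cannot be told. None lies between 47.246 and 56.843 kb either, so its edge past Hoxd3 is placed no more finely. Before the stretch, from Hoxd13 to Hoxd9, 81.3% of calls were methylated with AG-881 (523 calls) and 80.7% with DMSO (528 calls). After it, from Hoxd4 to the non-coding gene Haglr, the levels were 84.9% (491 calls) and 86.3% (431 calls). Inside the stretch they were 10.7% (486 calls, interval 8.09 to 13.8) and 8.41% (428 calls, interval 5.96 to 11.5). These levels count 3 methylated CpGs that lie 485 to 499 bp before the Hoxd8 start. Without those CpGs the other 54 had 6.49% (462 calls) and 5.08% (413 calls). All 57 compared CpGs of the stretch have 10 or more positions within 100 bp, and at that density the parts before and after it had 81.1% and 85.4% with AG-881 and 78.7% and 88.9% with DMSO. Under 10 positions they had 81.8% and 84% with AG-881 and 86.3% and 81.2% with DMSO. The stretch was denser than its neighbours, with a median of 22 positions against 14 before and 12 after. At 20 or more positions the stretch had 6.95% with AG-881 and 5.45% with DMSO (44 CpGs), the part before it 80% and 85.6% (13 CpGs) and the part after it 90.9% and 83.3% (8 CpGs).

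The edge of the low stretch toward Hoxd9 lies at Hoxd8. At 3 CpGs 485 to 499 bp before the Hoxd8 start (chr2:74704116-74704130), 22 of 24 calls were methylated with AG-881 and 15 of 15 with DMSO. The next 4 compared CpGs, 150 to 196 bp after the start, had 30.6% (36 calls) and 31.2% (32 calls). From 269 bp after the start to Hoxd3, the 50 compared CpGs had 4.46% (426 calls, interval 2.71 to 6.88) and 2.89% (381 calls, interval 1.45 to 5.11). Between the first of these blocks and the next lie 635 bp without a compared CpG, so the step is placed no more finely than that. It stood at the same place in both arms.

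The pools with the highest HoxD levels also had the smallest share of their calls in the stretch. The stretch took 24.8% of the HoxD calls of pool 3 and 25.5% of those of pool 5, and 30.7 to 39.5% of those of the other 6 pools. Among these 6 share and level did not go together: pool 6 had 30.7% of its calls there and a HoxD level of 55.1%, and pool 4 had 33.5% and 58.3%. Inside the stretch pool 3 had 24.2% of its calls methylated, against 4.67 to 15.4% in the others. Without the 3 CpGs before the Hoxd8 start, pool 3 had 13.3% of 83 calls there, against 0.694 to 12% in the others. Outside the stretch pool 3 had 84.4% and pool 5 87.1%, against 72.7 to 86.5% in the others. Without the stretch the arms had 83% and 83.2%, a difference of -0.174 points (interval -3.55 to 3.21). With all of HoxD, single cells with 20 calls ranged from 22.7% to 92.3% with AG-881 (median 61.1%, 32 cells) and from 22.2% to 92.2% with DMSO (median 59.7%, 26 cells), and the stretch took from 0 to 72.1% and from 0 to 74.1% of their calls. Outside the stretch they ranged from 51.6% to 96.9% (median 87.7%, 22 cells) and from 41.7% to 100% (median 86.7%, 17 cells).

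At the gene starts of HoxD, read 1 kb either side, levels ran from 0 to above 90%. Hoxd11, which with its HoxA relative patterns the forearm and the kidney, had 83.5% with AG-881 (218 calls, interval 77.9 to 88.2) and 85.1% with DMSO (228 calls, interval 79.8 to 89.4) over its 2 starts. Hoxd10, a gene of lumbar spinal cord and limb, had 90.6% and 92.7%, and Hoxd9 had 67.7% (interval 57.5 to 76.7) and 59.2% (interval 49.8 to 68). The Hoxd9 levels were 60.9%, 65%, 62.9% and 85.7% in AG-881 pools 1 to 4 and 67.6%, 40%, 58.5% and 59.3% in DMSO pools 5 to 8, so the groups overlapped. Hoxd8 had 18.4% (283 calls) and 15.4% (234 calls). Pool 3 stood apart at Hoxd8 with 51.1% of 45 calls, against 10 to 14.1% in the other AG-881 pools and 9.21 to 25% in the DMSO pools. Only 4 cells of pool 3 had at least 5 calls at Hoxd8, of which 2 were fully methylated and 2 fully unmethylated. Pools 2 and 5 held 1 fully methylated cell each. Of the 23 methylated calls of pool 3 there, 12 came from the 3 CpGs before the start, which were methylated in 83.3% or more of the calls of each pool that covered them; without those CpGs pool 3 had 33.3% of 33 calls and the others 1.43 to 20%. Hoxd3, whose product acts in the neck vertebrae and hindbrain, had 0 of 140 calls methylated with AG-881 in 18 cells and 0 of 114 with DMSO in 17 cells, which allows levels of up to 2.14% and 2.63%. The starts of Hoxd13, Hoxd12, Hoxd4 and Hoxd1 were not measured under the minimum of 50 calls and 10 cells in each arm.

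HoxC starts were spread over the intermediate range. From the tail end on, Hoxc13, a gene of hair and nail growth, had levels of 31.6% (AG-881) and 34.6% (DMSO). Hoxc11 had 35.6% and 29.6% in the same order. Hoxc10, active in the lumbar cord, had 60.5% and 51.7%, and Hoxc9, which sets thoracic identity in the cord, had 69.9% (interval 58.8 to 79.5) and 56.9% (interval 44.7 to 68.6). Hoxc5 had 48.2% (interval 39.7 to 56.8) and 37.9% (interval 27.7 to 49). Hoxc4, at the head end of the cluster, had the lowest level, 7.50% (interval 3.49 to 13.8) and 11.6% (interval 6.47 to 18.7). The intervals of all these differences included 0. Hoxc8, a thoracic gene, was the exception, with 23.2% (151 calls, 29 cells, interval 16.7 to 30.7) and 34.5% (177 calls, 35 cells, interval 27.5 to 42), a difference of -11.3 points (interval -21.2 to -1.01). Its DMSO pools 5 to 8 had 34.3%, 34.5%, 35.7% and 33.8%, while AG-881 pools 1 to 4 had 13.8%, 16.7%, 40.7% and 11.4%. So 3 AG-881 pools lay below every DMSO pool and pool 3 lay above all of them. The Hoxc8 difference became -21.1 points when pool 3 was left out and -6.43 points when pool 4 was, and -10.5 points when taken within each CpG. Hoxc12 and Hoxc6 were not measured.

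**Figure D4:**
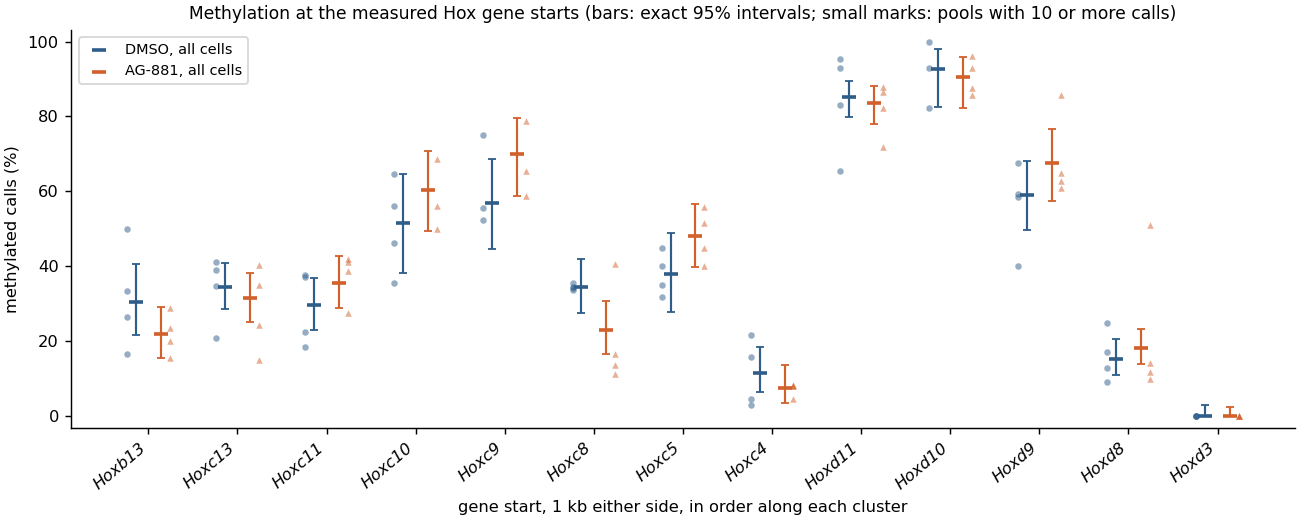
Methylated calls (%) within 1 kb of the 13 measured Hox gene starts, with all cells of an arm as dashes, exact 95% intervals as bars and pools with at least 10 calls as small marks (DMSO blue, AG-881 orange). Levels run from 0 at Hoxd3 to 92.7% at Hoxd10 with DMSO, and at Hoxc8 the 4 DMSO pools sit together while AG-881 pool 3 lies above them.

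Of the HoxB starts only that of Hoxb13 was measured. Hoxb13, a gene of the tail bud and prostate that lies apart from the rest of its cluster, had 21.9% with AG-881 (155 calls, interval 15.7 to 29.3) and 30.6% with DMSO (98 calls, interval 21.7 to 40.7). The difference of -8.68 points had an interval that included 0, and the pools overlapped, with 20%, 28.9%, 23.5% and 15.7% against 33.3%, 16.7%, 50% and 26.5%. The starts of Hoxb9, Hoxb8, Hoxb7, Hoxb6, Hoxb5, Hoxb4, Hoxb3, Hoxb2 and Hoxb1 held between 0 and 4 compared CpGs and were not measured. Most compared CpGs of HoxB thus lie more than 1 kb from the start positions used. Except at Hoxb8, Hoxb4 and Hoxb1 these were lower ends of gene spans, which can lie far from a promoter. At Hoxc4, for instance, the span begins at 103018097 and the promoter window gives a start at 103034395. In tiles of 1 kb the cluster was read inside Hoxb8 (27.6% with AG-881 and 26.7% with DMSO). It was also read where Hoxb5 and Hoxb5os overlap (47.9% and 54%) and where Hoxb3 and Hoxb4 overlap (36.3% and 35.3%). Another tile, chr11:96354000-96354999, had 45.3% and 58%. Hoxb2 reaches only to 96354020, and the compared CpGs of that tile lie past its end.

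In all, 13 of the 28 Hox gene starts were measured. A DMSO level of 20% or more was held by 10 of them, against 13.9% of the 9036 gene starts of the promoter table that were measured. Here and below this sets partly unlike starts side by side. Only the 5 measured HoxD starts and Hoxc4 came from that table, and the others were lower ends of gene spans. Of these 5 HoxD starts 3 reached 20%, and Hoxc4, with 11.6%, did not. Between arms 6 of the 13 starts were lower with AG-881, 6 higher and 1 equal, with a median difference of 0 points. Lower starts made up 50.7% of those of the promoter table. By 10 points or more, 1 start was lower (Hoxc8), against 3.60% of all gene starts, and 2 were higher (Hoxc9 and Hoxc5), against 1.04%. The intervals of the differences at Hoxc9 (-3.11 to 28.5 points) and Hoxc5 (-3.63 to 23.6 points) included 0. Of the 10 starts with 10 calls in every pool, none had all AG-881 pools on 1 side of all DMSO pools.

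Between arms, tiles differed in both directions. Of the 31 tiles, 3 were lower with AG-881 by at least 10 points, against 4.78% of 15262 tiles, and 2 were higher, against 1.78%. Most member tiles are intermediate, and among tiles with a mean of both arms from 20 to 80% the shares were 3 and 2 of 20, against 20.5% and 7.32%. These shares are near those of intermediate tiles in general. The lower tiles were that past the Hoxb2 end, that of Hoxc8 (the same calls as its start) and that of Haglr and Gm14424. The last, shared by these non-coding genes, had 70.1% and 85%. The higher ones were at Hoxc11 (48.5% and 30.7%) and at Hoxc5 (48.2% and 37.9%). All these tiles are named because they passed this size. Of the 17 tiles with at least 10 calls in every pool, 0 had every AG-881 pool below every DMSO pool, against 1.13% of the table, and 0 the reverse, against 0.435%. At least 100 calls and 15 cells in each arm were reached by 6 tiles. Apart from those at Hoxc8, Hoxd3 and the Hoxd8 start these were the tile of Hoxc13 (40.5% and 41.4%), another tile of Hoxc11 (23.3% and 28.8%) and the next tile of Hoxd8 (2.86% and 2.55%). The median difference over the member tiles was -0.813 points, against 0 over all tiles and -2.68 points over all intermediate ones.

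In bins of 10 kb HoxB was lower with AG-881 in 10 of 15 bins, HoxC in 7 of 12 and HoxD in 4 of 9 with 1 equal. Taken within each CpG, the HoxB bins from 96290000 and from 96300000 turned from -0.774 and -6.11 points to 0.442 and 1.00. The HoxD bin from 74735000 turned from 1.49 to -2.48 points, and the equal one from 74715000 became 1.09. All other bins kept their sign. Of all 10 kb bins with a compared CpG 45.2% were lower with AG-881, as were 51.6% of those with a mean of both arms from 20 to 80%. Of 22 bins with at least 10 calls in every pool, 1 had every AG-881 pool below every DMSO pool, against 1.55% of 10 kb bins of the table and 2.40% of intermediate ones. None had the reverse, against 0.508% and 0.660%. The bin with every AG-881 pool lower was the HoxB bin at chr11:96280000-96289999, which covers nearly all of Hoxb8 and Hoxb7, genes of the thoracic level of the body. Its level was 39.1% with AG-881 (161 calls, 33 cells, interval 31.5 to 47.1) and 51.7% with DMSO (174 calls, 32 cells, interval 44 to 59.3). AG-881 pools 1 to 4 had 45.8%, 37.9%, 31% and 42%, and DMSO pools 5 to 8 had 55.6%, 47.2%, 48.8% and 60%. Taken within each CpG the difference was -8.65 points in place of -12.6. The bin was singled out after its values were seen.

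In HoxB and HoxC both kinds of call stood side by side in single cells. Among tiles with a mean of both arms from 20 to 80%, cells with at least 5 calls in a tile held both kinds of call in 33 of 40 cases in HoxB with AG-881 (82.5%) and 25 of 30 with DMSO (83.3%), and in 93 of 105 (88.6%) and 67 of 77 (87%) in HoxC. In HoxD only 15 of 32 (46.9%) and 12 of 30 (40%) were mixed, 6 and 6 were fully methylated and 11 and 12 fully unmethylated. Mixed cases made up 75.5% and 77.1% over all intermediate tiles, and 56.8% and 55.3% in HoxA. These HoxD cases come from 3 tiles. The Hoxd8 tile that spans the edge held 18 of the 32 and 16 of the 30 cases. Of its cases 5 and 5 were mixed and 10 and 10 fully unmethylated. At the Hoxd9 tile 4 of 6 and 1 of 5 were mixed, and at that of Haglr and Gm14424 6 of 8 and 6 of 9. Much of the HoxD share of unmixed cases thus comes from the Hoxd8 tile. A cell carries more than 1 copy of each locus, and the copies cannot be told apart in these calls.

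Neighbouring CpGs of a cell gave the same contrast. In pairs of adjacent compared CpGs at most 100 bp apart, the 2 calls of a cell differed in 36.5% of cases in HoxB with AG-881 (interval 33.4 to 39.8, 901 cases) and 32.8% with DMSO (interval 29.5 to 36.3, 752 cases). In HoxC they differed in 31.5% and 32.7%, in HoxD in 13.7% and 11.7%, in HoxA in 5.75% and 5.86%, and over all compared CpGs in 7.81% and 8.55%. Part of this follows from the level, because pairs near 0 or 100% can hardly differ. At pairs with a mean level from 20 to 80% HoxB had 43.2% (interval 39.3 to 47.1) and 38.5%, and HoxC 38.3% and 39.3%. All such pairs had 36.1% and 37.4%, so HoxB with AG-881 lay above them and the other values lay near them. HoxD had 27% (61 of 226) and 20.5% (49 of 239) and HoxA 20.5% and 20.1%, below all such pairs.

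**Figure D5:**
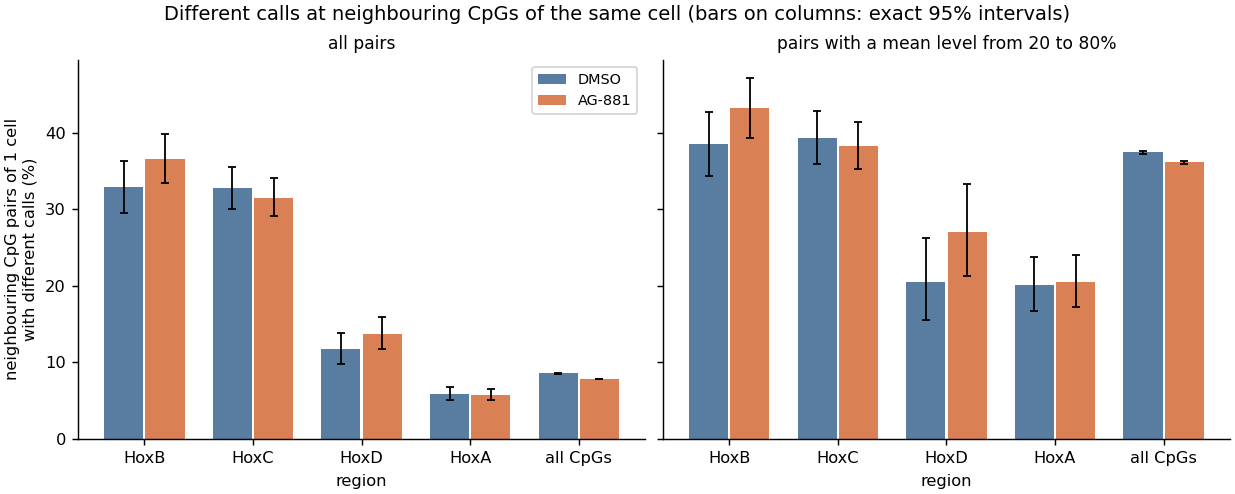
Share (%) of cases in which adjacent CpGs of 1 cell at most 100 bp apart had different calls, for all pairs (left) and for pairs with a mean level from 20 to 80% (right); columns are arms and bars exact 95% intervals. With all pairs HoxB and HoxC stand at 31.5 to 36.5% and HoxD at 11.7 to 13.7%, and with intermediate pairs HoxD and HoxA remain below all CpGs.

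The clusters also hold non-coding genes, read over their spans and 1 kb either side. Mir196a-2, between Hoxc10 and Hoxc9, had 16.9% with AG-881 (59 calls, interval 8.44 to 29) and 15.6% with DMSO (77 calls, interval 8.32 to 25.6). It encodes miR-196a, which represses Hox messages, and its mature 5p form (chr15:102973365-102973386, plus strand, GRCm38.p6; capitals mark the seed, bases 2 to 8) is the same as that of Mir196a-1 in HoxB, which was not measured.
miR-196a-5p: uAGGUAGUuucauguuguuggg
Mir10a, Mir10b and Hotair, a long RNA that binds Polycomb, were not measured either. Mir615, inside Hoxc5, had 59.8% and 59.1%, and Gm30528, which overlaps Hoxc4, 57.6% and 56.9%. Gm30528 runs to 103060555, past the end of the HoxC region, and CpGs beyond that end are counted in its level. Inside the region, its CpGs up to 103034999 had 40% and 47.5%, and the 3 after them 10% and 10.3%. Among antisense genes of HoxB, Hoxb5os had 40.5% and 43.4% and Hoxb3os 57.5% and 64%. Hoxd3os1 shares the CpGs of the Hoxd3 start and had 0 in both arms, and Haglr, a long RNA at the Hoxd1 end, had 74.5% (interval 67.2 to 81) and 83.8% (interval 77 to 89.2). Gm30134, a non-coding gene near Hoxb13, had 36.6% (93 calls, interval 26.8 to 47.2) and 55.7% (79 calls, interval 44.1 to 66.9). It is named for this difference, seen in the values. Pools 1 and 6 had 7 and 3 calls there, under the minimum of 10, and the others had 46.4%, 31.6% and 30.8% with AG-881 and 47.5%, 55% and 75% with DMSO.

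Genes that act with or on Hox genes were read at their starts as well. Over all gene starts measured, 72.7% were below 5% in both arms. Of 9 Hox cofactors of the Pbx and Meis families, 4 were measured and all were below 5% in both arms. Of 13 Polycomb genes 11 were measured and 9 were below 5% in both arms, among them the methyltransferase gene Ezh2 (0% and 0.238%). The others were Cbx7 (17.2% and 17.2%) and Pcgf2 (12% and 11.3%). Of 9 activators of Hox genes 5 were measured. Cdx2, the caudal homeobox activator of posterior Hox genes, had 78.8% and 76.1%, and the retinoic acid receptor gene Rarg 26.9% and 28.4%, while the others, among them the methyltransferase gene Kmt2a, were below 5%. None of the 20 measured genes differed between arms by 10 points.

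The few dense CpGs compared beyond both ends of HoxD were almost free of methylation, and beyond Hoxd1 so were the sparser ones. In the 100 kb beyond Hoxd1, which hold Mtx2, 1 of 174 calls was methylated with AG-881 and 0 of 138 with DMSO. They come from 17 compared CpGs, of which 7 have a density of 10 or more and were called in 10 and 9 cells. These calls count CpGs of every density, and the 1 methylated call came from a CpG of density under 10. At density 10 or more in the 100 kb beyond Hoxd13, which hold Evx2 and Lnpk, 1 of 100 and 0 of 63 were methylated. Those calls come from 9 CpGs. Sparser CpGs beyond Hoxd13 had 60.5% and 57.1%. The 100 kb around HoxB had 48% and 51.2% beyond Hoxb13 and 55% and 45.9% beyond Hoxb1, against 39.5% and 44.8% in the cluster. Those around HoxC had 55.6% and 67% beyond Hoxc13 and 71.9% and 67.9% beyond Hoxc4, against 43.3% and 42.1% in the cluster. Most of these flank CpGs are sparse. Under 10 positions lie 20 of 25 beyond Hoxb13, all 7 beyond Hoxb1, all 12 beyond Hoxc13 and 36 of 49 beyond Hoxc4. At 10 or more positions the 5 CpGs beyond Hoxb13 had 11.8% and 25% (7 and 6 cells), against 47.8% and 53.5% in HoxB. The 13 beyond Hoxc4 had 80% and 70.4%, against 34.4% and 34.5% in HoxC.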

How the data were processed

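The methylation table of the single cells was used; the transcriptomes of the same cells were not analysed here. The authors deposited methylated fractions of 0, 0.5 or 1 per position and cell; numbers of reads are not among them, and read depth is therefore unknown. The submitters' processing notes name the build mm10. The aligner is not given in the sources used here, nor is the methylation caller. Adjacent positions were merged as the strands of 1 CpG, a call was methylated above 50%, and ties (1.47% of calls in the clusters) were left out. A CpG was compared where each arm had 5 or more cells with a call. Incomplete bisulfite conversion would raise every level.

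Column names gave arm, library pool and barcode, not the well. All 24 barcodes recur in 2 or more of the 8 pools, so a cell was named by pool and barcode together. Each arm is 1 sample, so pools served as technical batches and no test between arms was run. Gene starts came from RefSeq promoter windows of GRCm38.p6 (13 genes) or, elsewhere, from the lower end of the gene span; the table used gives spans without exons. Tiles, bins and starts needed the stated minimum of calls and cells. Named were all Hox genes, the tiles with 100 calls and 15 cells by size and level, and items said to be chosen after seeing values. The members, gene lists and rules were chosen with earlier results of these data known. The counting of tiles was checked on simulated data. Alternatives changed the minimum of cells, the treatment of 0.5 and of strands, weights, tile size, window width and the pools used. Python 3.11.15 with numpy 2.4.6 and scipy 1.17.1 was used.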

Additional observations from a re-analysis of the deposited data

How the results depend on the processing

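No paired analysis was possible because the pools of the arms carry no shared numbers and each arm is 1 sample. Each value below is AG-881 minus DMSO in percentage points, or the DMSO level where said. With a minimum of 10 cells per arm for a CpG, HoxB and HoxD kept 1 CpG each (difference 0 and -21.4 points, DMSO level 100% in both), HoxC 29 CpGs with a DMSO level of 32%, and the tile counts became 0 lower, 0 higher and 2 at 20% or more of 2 tiles, because almost no CpGs were left. With a minimum of 2 cells the DMSO level of HoxD was 67.4% and the tile counts 9, 4 and 50 of 58. With every cell given the same weight the HoxD difference was 3.89 points and its DMSO level 56.6%. With 100 calls and 15 cells 1 tile was lower, 0 higher and 4 of 6 at 20% or more; with 2 kb tiles 1 was higher. Without the stretch from Hoxd8 to Hoxd3, an alternative chosen after seeing the data like the difference within each CpG, the DMSO level of HoxD was 83.2%.

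Leaving out 1 pool at a time, with CpGs and tiles kept as chosen on all cells, gave differences from -6.77 to -2.37 points in HoxB, -0.502 to 2.42 in HoxC and -3.91 to 2.41 in HoxD. DMSO levels ranged from 41.9% to 46.3% in HoxB, 41.1% to 43.1% in HoxC and 57.2% to 61.4% in HoxD. Tiles lower by 10 points numbered 2 to 5 (5 without pool 6 or 7), higher ones 1 to 4 (1 without pool 1 or 7, 4 without pool 2 or 8), and those at 20% or more 25 to 27. The sign turned in 4 of 15 alternatives in HoxC and 5 of 16 in HoxD. It turned at 5 of 13 gene starts, all with an interval that included 0. Hoxc11 had -6.93 points at 3 CpGs called in 10 cells, and Hoxd11 5.95 points within 500 bp and up to 3.07 points without a pool. Hoxc13 had 1.04 points with a minimum of 10 cells, 0.129 without pool 1 and 0.228 without pool 8. Hoxd8 had -3.20 points without pool 3, and Hoxd10 had 0.588 points without pool 8. Of the HoxB starts 9 of 10 were not measured; the cause was not tested.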
